A study of Mus musculus with 16 samples.

Results

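Interferon response genes are described here in mouse rotator cuff muscle: the transcription factors Stat2, Irf1, Irf3, Irf7 and Irf9, and the interferon-induced effectors Isg15, Ifit1, Ifit3 and Bst2. They were chosen by symbol, and all 9 were found among the 11710 genes of the count table and passed the filter on low counts. RNA sequencing covered 16 samples in 4 groups of 4. C57BL/6J, a common reference strain (BL6 below), and MRL/MpJ, an inbred strain studied for its wound healing (MRL below), were each sampled without an operation and after the tendon was cut and the muscle denervated. No group carries a transgene or a drug treatment in the labels. The muscle is the infraspinatus in the series text but the supraspinatus in the sample labels. Age, sex and the time after surgery are not given in the sources used here. Nothing says whether the samples of a group came from separate animals, so p-values measure the spread between samples, which may be technical.

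Interferons are secreted proteins that warn cells of infection and tissue damage. Type I interferon binds the receptor pair Ifnar1 and Ifnar2, whose kinases Jak1 and Tyk2 phosphorylate Stat2; with Irf9 it takes part in the complex ISGF3, which binds the interferon-stimulated response element (ISRE). Interferon gamma signals through Ifngr1, Ifngr2, Jak1 and Jak2 to genes that carry the gamma-activated site (GAS). Irf3 and Irf7 act upstream, where they switch on interferon genes once nucleic acid sensors fire, and Irf1 is itself induced through a GAS.

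The promoters of all 9 genes were found in the RefSeq table (GRCm38.p6), as windows of 300 bases from 250 before to 50 after the annotated start. They were searched on both strands for an ISRE core, GAAA followed after any 2 bases by GAAA, and for the GAS, TTCNNNGAA, which is its own reverse complement. Of 32851 mouse promoters of the same length, 1131 (3.44%) held the ISRE core and 2726 (8.3%) held the GAS. ISRE cores were present in Stat2, Isg15, Ifit1, Ifit3 and Bst2, and a GAS in Irf1 and Bst2. The 6 promoters with a match are shown because they place these letters beside the expression values; each stretch is 100 bases of the gene's own strand, and capitals mark the matches.
Stat2, chr10:128270248-128270347, plus strand: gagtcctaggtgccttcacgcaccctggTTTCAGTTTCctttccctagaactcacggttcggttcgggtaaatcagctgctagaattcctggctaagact
Irf1, chr11:53769878-53769977, plus strand: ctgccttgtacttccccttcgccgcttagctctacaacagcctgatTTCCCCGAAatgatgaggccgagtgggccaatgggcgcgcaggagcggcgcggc
Isg15, chr4:156200836-156200935, minus strand: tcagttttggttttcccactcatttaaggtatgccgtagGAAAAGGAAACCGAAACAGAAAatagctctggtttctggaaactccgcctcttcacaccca
Ifit1, chr19:34640749-34640848, plus strand: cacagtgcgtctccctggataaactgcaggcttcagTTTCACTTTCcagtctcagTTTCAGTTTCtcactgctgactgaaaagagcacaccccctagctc
Ifit3, chr19:34583345-34583444, plus strand: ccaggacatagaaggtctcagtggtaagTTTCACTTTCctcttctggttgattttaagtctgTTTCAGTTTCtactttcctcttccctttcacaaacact
Bst2, chr8:71537545-71537644, minus strand: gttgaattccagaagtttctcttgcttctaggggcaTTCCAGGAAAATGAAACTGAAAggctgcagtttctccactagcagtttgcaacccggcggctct

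Isg15 held 3 overlapping ISRE cores, whose first bases lie at -78, -72 and -66 from the start. Ifit1 and Ifit3 each held a separate pair, and the cores nearest the start share the same 10 letters. In Bst2 a pair of ISRE cores overlaps, and the GAS overlaps the first of them. The Stat2 core lies farthest from its start, at -222. No match was found in the windows of Irf3, Irf7 or Irf9, nor at the second annotated start of Irf1, which says only that these letters are not in those windows.

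**Figure D1:**
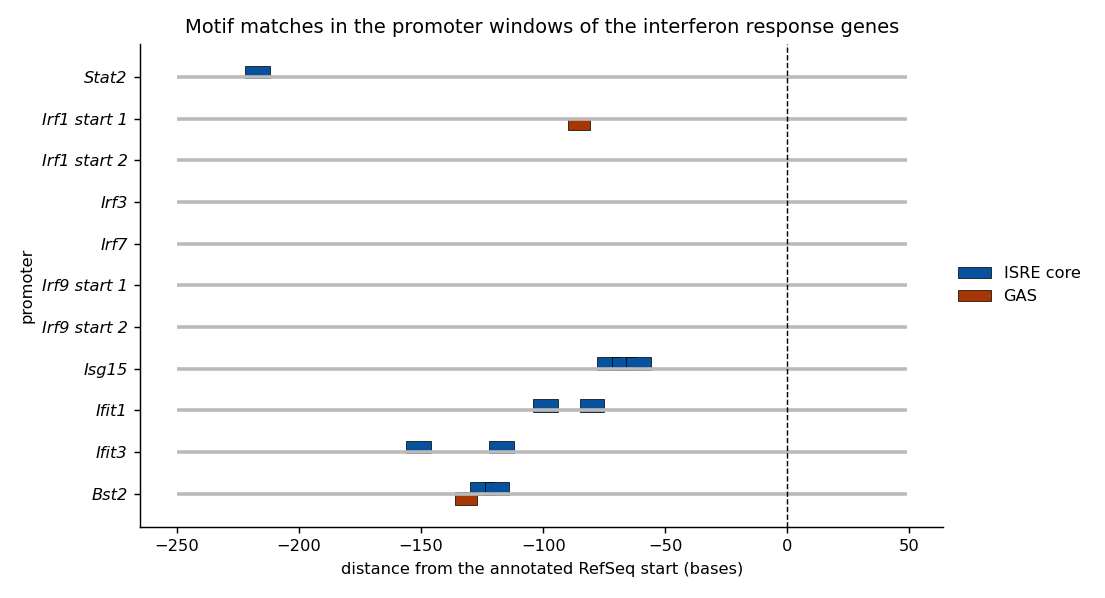
Positions of ISRE core and GAS matches in the promoter window of each gene; the x axis is the distance in bases from the annotated start, and each bar is 1 match. The effectors Isg15, Ifit1, Ifit3 and Bst2 hold 2 or 3 ISRE cores each, and Irf3, Irf7 and Irf9 hold no match.

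Total counts ran from 24323862 to 43552964 per sample, and 3 counts, taken as the floor, equal 0.0689 to 0.123 CPM (TMM-scaled counts relative to library size). The floor covers counting error only. All 9 genes lay above it in every sample. Markers of the labelled tissue, skeletal muscle fibers, were present for 7 of 7 genes at a summed 48370 to 141200 CPM. Replicate 1 of unoperated MRL and replicate 4 of operated BL6 stood apart in marker sums: their summed macrophage and monocyte markers were 312 and 528 CPM, against 75.5 to 97.5 and 83.4 to 157 CPM in the rest of their groups. Each count of genes below was also made without both. That check kept operated MRL replicate 4, which differed from its group over all genes. Its chi-square per gene against the other replicates was 233.1 to 301.4, beside 44.35 to 64.39 among those replicates. Leaving it out raised the genes called after surgery in MRL from 5272 to 6145.

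As counted, all 9 genes rose after surgery in both strains. For Ifit3, summing its counts with those of a near-identical copy left a smaller rise in BL6 that was not called. Its log2 was 0.36 there (adjusted p = 0.125, edgeR), and in MRL the change turned negative. The counts that follow use Ifit3 as counted. In BL6 9 of 9 were called higher at an adjusted p under 0.05 (edgeR's quasi-likelihood test, Benjamini-Hochberg adjustment over 11709 genes), where 35.1% of all genes tested were called higher, 32.8% lower and 67.9% in either direction. In MRL 9 of 9 were called higher, against 22.3% of all genes higher, 22.7% lower and 45% in either direction. The median log2 fold change of the 9 genes was 1.13 in BL6 and 0.97 in MRL, beside 0.04 and 0.01 over all genes tested. Without the 2 libraries that stood apart, 9 of 9 were again called in each strain. In bulk tissue, more cells of a type and more RNA per cell cannot be told apart.

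**Figure D2:**
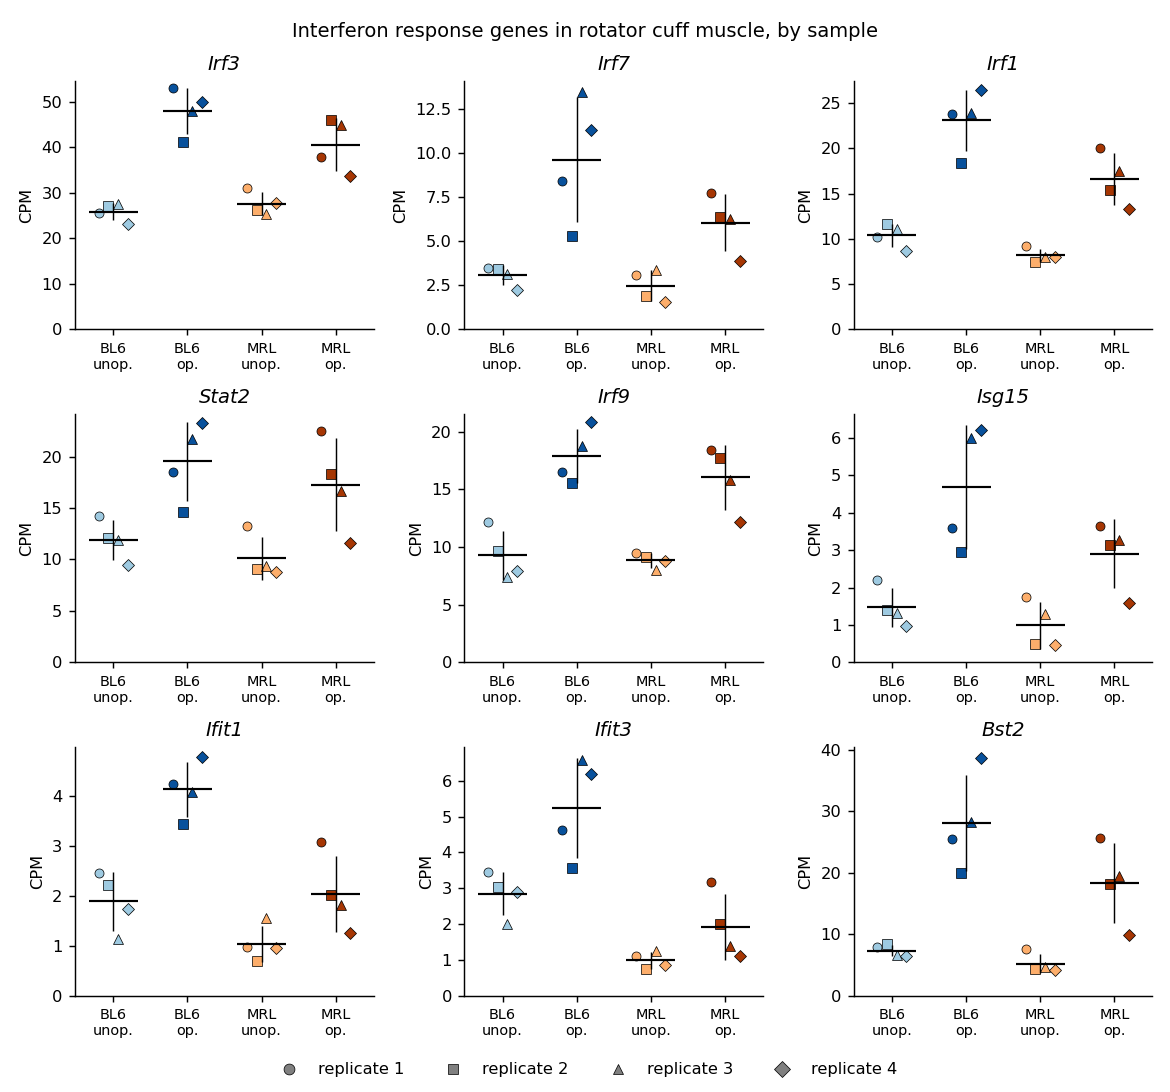
CPM of each gene (y axes, linear from 0) in every sample of the 4 groups (x axis); marker shapes give the replicate number. Operated samples lie above unoperated ones without overlap for 9 of 9 genes in BL6 and 5 of 9 in MRL.

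Irf3 (ENSMUSG00000003184; GRCm38 chromosome 7, 44997648 to 45002848, plus strand) codes for a factor that is made constantly and is activated by phosphorylation downstream of nucleic acid sensors. It held 25.6, 27.1, 27.5 and 23.2 CPM in replicates 1 to 4 of unoperated BL6, and 52.9, 41.1, 48.0 and 49.99 CPM after surgery. In MRL its values were 31.0, 26.3, 25.3 and 27.7 CPM unoperated and 37.8, 45.9, 44.8 and 33.6 CPM operated. Every operated sample lay above every unoperated sample in both strains. The rise was 1.86-fold in BL6 (log2 0.89, SE 0.11, adjusted p = 2.44e-05, edgeR) and 1.47-fold in MRL (log2 0.55, SE 0.11, adjusted p = 0.00251). Its exons share 88 bases (2.56%) with Bcl2l12 on the other strand, and whether the counting used strand is not given in the sources used here.

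Irf7 (ENSMUSG00000025498; chromosome 7, 141262706 to 141266481, minus strand), the interferon-inducible factor that amplifies type I interferon output, was scarcer and rose further. Unoperated BL6 held 3.48, 3.40, 3.12 and 2.25 CPM and operated BL6 8.44, 5.31, 13.5 and 11.3 CPM. Unoperated MRL held 3.09, 1.92, 3.35 and 1.54 CPM and operated MRL 7.71, 6.38, 6.28 and 3.87 CPM. The groups did not overlap in either strain, though replicate 2 of operated BL6 and replicate 4 of operated MRL were well below the others of their groups. The fold was 3.15 in BL6 (log2 1.65, SE 0.31, adjusted p = 0.000289, edgeR) and 2.45 in MRL (log2 1.29, SE 0.31, adjusted p = 0.00511). It shares 45 exonic bases (1.19%) with Phrf1, an antisense neighbour.

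Irf1 (ENSMUSG00000018899; chromosome 11, 53770014 to 53778374, plus strand), a factor induced by interferon gamma that binds ISRE-like sequences, carries the GAS shown above. Its values were 10.2, 11.6, 11.05 and 8.63 CPM in unoperated BL6 and 23.7, 18.4, 23.9 and 26.4 CPM after surgery. MRL samples held 9.20, 7.46, 8.03 and 7.99 CPM unoperated and 20.02, 15.4, 17.5 and 13.3 CPM operated. The groups did not overlap in either strain, and the spread among unoperated MRL samples was narrow. Its exons share 135 bases (3.4%) with the antisense gene Gm17334. Irf1 rose 2.22-fold in BL6 (log2 1.15, SE 0.14, adjusted p = 2.02e-05, edgeR) and 2.02-fold in MRL (log2 1.02, SE 0.14, adjusted p = 0.000469).

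Stat2 (ENSMUSG00000040033; chromosome 10, 128270559 to 128292849, plus strand) and Irf9 are both parts of ISGF3. Stat2 held 14.2, 12.1, 11.9 and 9.47 CPM in unoperated BL6 and 18.5, 14.6, 21.7 and 23.3 CPM in operated BL6. In MRL it held 13.2, 9.10, 9.32 and 8.75 CPM before and 22.5, 18.3, 16.7 and 11.6 CPM after surgery. The MRL groups overlapped, because the lowest operated sample, replicate 4, lay below unoperated replicate 1. Its folds of 1.64 in BL6 (log2 0.72, SE 0.20, adjusted p = 0.00563, edgeR) and 1.71 in MRL (log2 0.77, SE 0.20, adjusted p = 0.00795) had largely shared 95% intervals, 1.22 to 2.21 and 1.27 to 2.30.

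Irf9 (ENSMUSG00000002325; chromosome 14, 55603571 to 55610030, plus strand) is the DNA-reading subunit of ISGF3. It went from 12.2, 9.65, 7.37 and 7.96 CPM to 16.5, 15.5, 18.7 and 20.8 CPM in BL6. In MRL it went from 9.51, 9.12, 7.999 and 8.78 CPM to 18.4, 17.8, 15.8 and 12.1 CPM. Neither strain's groups overlapped. The rise was 1.93-fold in BL6 (log2 0.95, SE 0.16, adjusted p = 0.000168, edgeR) and 1.81-fold in MRL (log2 0.86, SE 0.16, adjusted p = 0.00181). Its exons share 123 bases (2.28%) with Rnf31 on the same strand, so reads there cannot be assigned to either gene from their position.

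Among the effectors, Bst2 (tetherin; ENSMUSG00000046718; chromosome 8, 71534255 to 71537456, minus strand), a membrane protein that holds budding viruses at the cell surface, had the highest fold in both strains. Unoperated BL6 held 7.87, 8.33, 6.63 and 6.36 CPM and operated BL6 25.5, 19.9, 28.2 and 38.6 CPM. Unoperated MRL held 7.52, 4.32, 4.64 and 4.23 CPM and operated MRL 25.7, 18.2, 19.5 and 9.90 CPM. No operated sample fell within the unoperated range, and operated MRL replicate 4 was the nearest to it. The fold was 3.85 in BL6 (95% interval 2.59 to 5.71, log2 1.94, SE 0.27, adjusted p = 3.84e-05, edgeR) and 3.53 in MRL (2.37 to 5.27, log2 1.82, SE 0.27, adjusted p = 0.000658).

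Isg15 (ENSMUSG00000035692; chromosome 4, 156199424 to 156200818, minus strand) codes for a ubiquitin-like protein that is joined to other proteins after interferon exposure. Its values were 2.19, 1.39, 1.32 and 0.974 CPM in unoperated BL6 and 3.59, 2.94, 5.98 and 6.20 CPM in operated BL6. In MRL they were 1.74, 0.486, 1.29 and 0.460 CPM unoperated and 3.65, 3.12, 3.27 and 1.58 CPM operated. In MRL the lowest operated sample, replicate 4, lay just below the highest unoperated sample, replicate 1. Isg15 rose 3.19-fold in BL6 (95% interval 1.72 to 5.92, adjusted p = 0.00264, edgeR) and 2.93-fold in MRL (1.55 to 5.53, adjusted p = 0.0105). Over 482 bases (63.8% of its transcript) it is 95.2% identical to the annotated gene AC151275.1, which the count table does not list, so its level is uncertain to that extent.

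Ifit1 (ENSMUSG00000034459; chromosome 19, 34640871 to 34650009, plus strand), whose protein binds viral RNA that lacks the host's cap methylation, held 2.46, 2.23, 1.14 and 1.73 CPM in unoperated BL6. After surgery BL6 held 4.24, 3.45, 4.08 and 4.78 CPM, all above the unoperated samples. MRL held 0.978, 0.690, 1.55 and 0.948 CPM unoperated and 3.09, 2.01, 1.81 and 1.26 CPM operated, where replicate 4 lay inside the unoperated range. The fold was 2.19 in BL6 (log2 1.13, SE 0.30, adjusted p = 0.00414, edgeR) and 1.96 in MRL (log2 0.97, SE 0.32, adjusted p = 0.0223). The MRL call was lost without operated MRL replicate 1 (adjusted p = 0.0903), unoperated MRL replicate 2 (0.0726) or unoperated MRL replicate 4 (0.0546).

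Ifit3 (ENSMUSG00000074896; chromosome 19, 34583531 to 34588731, plus strand), another gene of the interferon-induced Ifit family, is the least certain of the 9. Unoperated BL6 held 3.45, 3.04, 2.01 and 2.90 CPM and operated BL6 4.64, 3.56, 6.59 and 6.20 CPM. Unoperated MRL held 1.10, 0.741, 1.26 and 0.840 CPM and operated MRL 3.17, 2.01, 1.38 and 1.11 CPM, where replicate 4 lay inside the unoperated range. As counted it rose 1.84-fold in BL6 (adjusted p = 0.0179, edgeR) and 1.94-fold in MRL (adjusted p = 0.0271). The BL6 call was lost without unoperated BL6 replicate 3 (adjusted p = 0.0584) or operated BL6 replicate 3 (0.0568). The MRL call was lost without operated MRL replicate 1 (log2 0.61, adjusted p = 0.122), operated MRL replicate 2 (0.0533), unoperated MRL replicate 2 (0.0803) or unoperated MRL replicate 4 (0.0690).

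The near-identical gene Ifit3b (ENSMUSG00000062488; chromosome 19, 34607970 to 34613401) matches Ifit3 at 97.8% over 1700 bases, 97.4% of the transcript, so the authors' counting could split reads between them. Ifit3b held 2.43, 3.23, 2.96 and 3.19 CPM in unoperated BL6 and 1.74, 3.29, 2.18 and 1.62 CPM in operated BL6. In MRL it held 4.34, 5.32, 6.26 and 4.90 CPM unoperated and 5.12, 4.40, 3.80 and 2.53 CPM operated. Ifit3b was thus the more counted copy in every MRL sample, unoperated and operated, and Ifit3 in every operated BL6 sample. In unoperated BL6, Ifit3 was the more counted copy in replicate 1 only. Summed, the pair held 5.80 ± 0.579 CPM before and 7.46 ± 1.06 after surgery in BL6, and 6.19 ± 0.919 before and 5.88 ± 1.97 after it in MRL (SD, n = 4). On the sum the log2 surgery effect was 0.36 in BL6 (SE 0.20, adjusted p = 0.125, edgeR) and -0.08 in MRL (SE 0.20, adjusted p = 0.768), neither called. The Ifit3 calls thus hold only for its reads as counted. Whether reads were assigned wrongly within the pair was not tested. With the sum in place of Ifit3, 8 of the 9 surgery calls in each strain stand on other genes.

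The MRL groups did not overlap for Irf1, Irf3, Irf7, Irf9 and Bst2, 5 of 9 genes, and in BL6 none of the 9 overlapped. Over all genes tested, operated samples lay wholly above unoperated samples for 17% in MRL and 27.5% in BL6, and wholly below for 16.7% and 29.2%. Stat2, Isg15, Ifit1 and Ifit3 overlapped in MRL, each time through operated MRL replicate 4. That sample was the lowest of its group for all 9 genes, as operated BL6 replicate 2 was of its own. Over all genes tested, both were also the operated samples of their strain nearest the unoperated ones on the first principal component, the axis of largest spread. They lay at 13.4 against 25.9 to 54.8 in the rest of operated MRL, and 16.7 against 44.6 to 86.1 in operated BL6. Their low place is thus not particular to these genes, and its cause was not tested.

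Whether the strains responded differently was tested as the interaction, the log2 surgery effect in MRL minus that in BL6. None of the 9 genes was called, against 0.248% of all genes tested (0.154% higher and 0.0939% lower), and 0 had an unadjusted p under 0.05 in edgeR's test, as 15.7% of all genes did. DESeq2 and limma voom also called 0 of the 9. The estimates ran from -0.36 for Irf7 to 0.07 for Ifit3, with a median of -0.12. The nearest to a call was Irf3, whose rise was smaller in MRL by 0.34 on the log2 scale (95% interval -0.68 to 0.0024, adjusted p = 0.32, edgeR). The interval was -0.56 to 0.29 for Irf1, -0.55 to 0.66 for Stat2 and -0.58 to 0.39 for Irf9. For the less counted genes the intervals were wide: -1.40 to 1.15 for Isg15, -1.27 to 0.55 for Irf7, -1.10 to 0.77 for Ifit1 and -0.85 to 0.99 for Ifit3. That of Bst2, which was not among the least counted, was also wide, at -0.92 to 0.67. Differences between the strains' responses inside those bounds were not detectable.

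**Figure D3:**
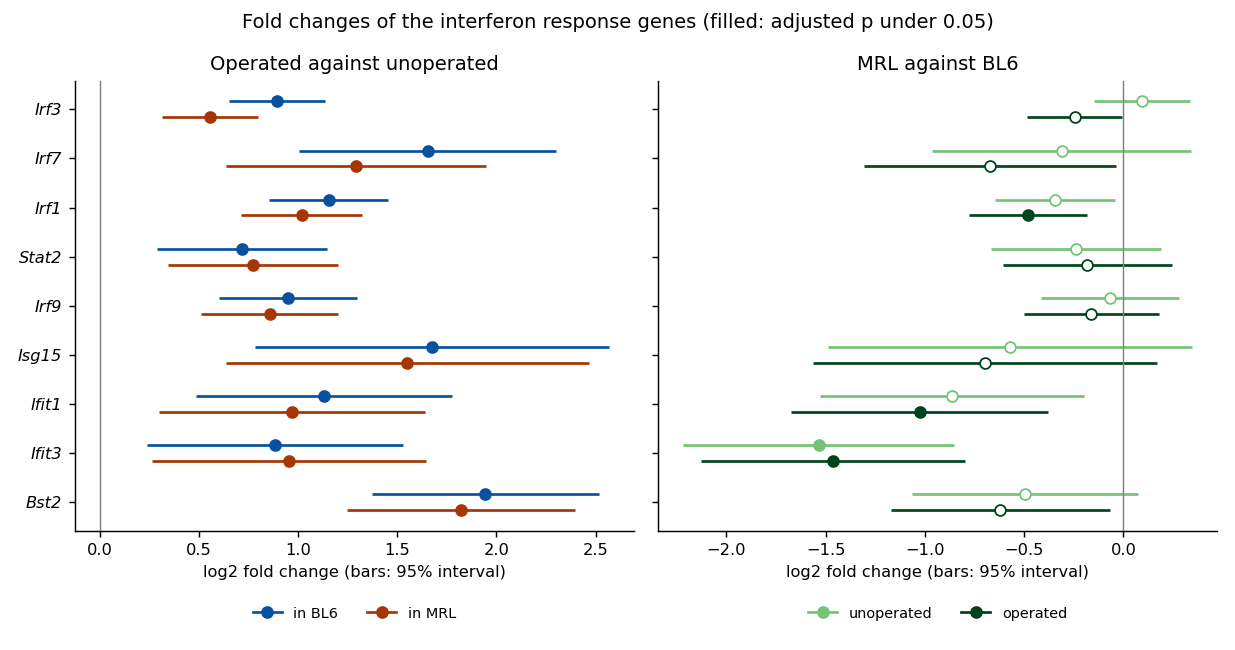
Log2 fold changes of the 9 genes (x axes) with 95% intervals as bars; the left panel gives operated against unoperated samples in each strain, the right panel the strain difference, MRL against BL6, in each condition, and filled points have an adjusted p under 0.05. All 18 surgery points are filled and above 0, while 4 of the 18 strain points are filled, all below 0 and 2 of them for Ifit3.

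Between the strains, unoperated MRL held 1 called gene of 9, Ifit3, against 5.36% of all genes called lower, 5.02% higher and 10.4% in either direction. As counted, Ifit3 was 2.90-fold lower in unoperated MRL (log2 -1.53, SE 0.32, adjusted p = 0.0048, edgeR) and 2.76-fold lower in operated MRL (log2 -1.46, SE 0.31, adjusted p = 0.00523), with no overlap of samples in either condition; unoperated samples did not overlap for 12.9% of all genes with MRL lower and 12.2% with MRL higher. Ifit3b differed the other way, with log2 0.81 (adjusted p = 0.0425) and 0.84 (adjusted p = 0.0362). Each Ifit3b call was lost in several leave-one-out fits. On the sum of both copies the strain difference was 0.09 unoperated (adjusted p = 0.828) and -0.35 operated (adjusted p = 0.301), neither called.

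Among operated samples, 3 of 9 genes were called lower in MRL, against 5.27% of all genes lower, 7.6% higher and 12.9% in either direction. The median log2 difference of the 9 was -0.62, and over all genes -0.01. Besides Ifit3 these were Irf1, 1.40-fold lower (log2 -0.48, SE 0.14, adjusted p = 0.0339, edgeR), and Ifit1, 2.04-fold lower (log2 -1.03, SE 0.30, adjusted p = 0.0369). Ifit1 and Ifit3 samples did not overlap, as 6.16% of all genes did not with MRL lower and 7.41% with MRL higher. For Ifit1 the highest operated MRL sample, 3.09 CPM, lay below the lowest operated BL6 sample, 3.45 CPM. Irf1 overlapped through operated MRL replicate 1, at 20.02 CPM, and operated BL6 replicate 2, at 18.4 CPM. With only the operated groups in the fit 0 of the 9 were called (Ifit3 adjusted p = 0.0526), and with total counts alone 1 was. The count was also 1, Ifit3, without operated BL6 replicate 1, 3 or 4, without operated MRL replicate 2 or 4, and without both libraries that stood apart. The other 6 genes had log2 differences of -0.70 (Isg15) to -0.16 (Irf9) that did not pass the test.

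The authors' deposited table of comparisons, which the submitters' file name credits to edgeR, also calls all 9 genes higher after surgery in each strain. For the strains, the authors' deposited table calls Ifit3 alone, with a log2 difference of -1.61 unoperated (false discovery rate 0.00431) and -1.39 operated (0.00862). In the authors' deposited table Irf1 and Ifit1 miss the threshold among operated samples, with false discovery rates of 0.0619 and 0.0516.

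Per kilobase of exon, on a scale of CPM per kb that allows genes to be compared, Bst2 and Irf3 were the most abundant of the 9 in all 4 groups. In unoperated BL6 Bst2 stood at 8.08 ± 1.05 and Irf3 at 7.51 ± 0.566 CPM per kb (SD, n = 4), which do not differ beyond their spread. Irf1 followed at 2.61 ± 0.328, and then Stat2 at 2.01 ± 0.325, Isg15 at 1.94 ± 0.682, Irf9 at 1.72 ± 0.399 and Ifit3 at 1.63 ± 0.349, neighbours within their spread. Irf7 at 0.811 ± 0.1499 and Ifit1 at 0.711 ± 0.221 were the lowest and did not differ beyond their spread.

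After surgery in BL6 the order was Bst2 at 31.1 ± 8.71, Irf3 at 13.9 ± 1.46, Isg15 at 6.19 ± 2.19 and Irf1 at 5.81 ± 0.850 CPM per kb (SD, n = 4). Isg15 thus moved past Stat2 and Irf1, though it and Irf1 lay within their spread. Irf9, Stat2, Ifit3 and Irf7 followed at 3.32 to 2.55, and Ifit1 was last at 1.56 ± 0.206. In unoperated MRL Irf3 led at 8.01 ± 0.726 before Bst2 at 5.73 ± 1.74, and Ifit3 (0.564) and Ifit1 (0.392) were last. Operated MRL had Bst2 at 20.3 ± 7.18, Irf3 at 11.8 ± 1.69, Irf1 at 4.17 ± 0.721 and Isg15 at 3.84 ± 1.21, with Ifit3 and Ifit1 again last at 1.10 and 0.769.

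The rest of the pathway was read from lists. None of 8 interferon ligand genes was among the genes tested, so no level of an interferon is given here. Of 9 receptor and Jak-Stat genes, 5 were called higher and 3 lower in BL6 (median log2 0.45), and 4 higher and 3 lower in MRL (median 0.32). Over all genes tested, 35.1% were called higher and 32.8% lower in BL6, and 22.3% and 22.7% in MRL. The chains of the interferon gamma receptor went opposite ways. Ifnar2, the signalling chain of the type I receptor, rose by 1.52 on the log2 scale in BL6 and 1.27 in MRL, and Ifngr1, the ligand-binding chain for interferon gamma, by 1.05 and 0.64. Ifngr2, the second interferon gamma chain, fell by 1.01 in BL6 and 1.07 in MRL, reaching 40.1 ± 9.27 CPM from 80.8 ± 9.25 in BL6 and 46.7 ± 9.19 from 97.8 ± 11.5 in MRL (SD, n = 4). The kinases Jak2 and Jak1 fell as well, by 1.05 and 0.89 in BL6 and by 1.001 and 0.56 in MRL. Tyk2 rose by 0.61 in BL6.

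Sensors and adaptors were mixed. Of 11 tested, 5 were higher and 2 lower in BL6 (median 0.60), and 6 higher and 1 lower in MRL (median 0.76). The shares of all genes were 35.1% higher and 32.8% lower in BL6, and 22.3% and 22.7% in MRL. Tmem173, the adaptor STING of cytosolic DNA sensing, rose by 1.45 and 1.27 on the log2 scale, and Ddx58, the RNA sensor RIG-I, by 0.98 and 0.96. Mavs, the mitochondrial adaptor that RIG-I signals through, fell by 0.72 and 0.67. Myd88, an adaptor of Toll-like receptors, rose by 1.248 and Traf3 fell by 0.56 in BL6; Ifih1, the RNA sensor MDA5, rose by 0.96 in MRL. Of 7 other Irf factors and Irf-binding genes tested, 2 were higher in each strain and none lower. In BL6 these were Irf4 (1.15) and Irf2bp2 (0.62), and in MRL Irf4 (1.18) and Irf2bpl (0.35). Scaling by total counts alone ended the calls of Traf3 in BL6 (adjusted p = 0.165) and of Irf4 and Irf2bpl in MRL. The BL6 count of 2 became 1 without unoperated BL6 replicate 3 or operated BL6 replicate 4 and 4 without operated BL6 replicate 2; the MRL count of 2 became 0 without unoperated MRL replicate 3 or 4 or operated MRL replicate 3 or 4, and 1 without unoperated MRL replicate 1 or 2 or operated MRL replicate 1.

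Among 34 further type I interferon-stimulated genes tested, 23 were higher and 2 lower in BL6 (median log2 0.80), and 28 higher and 0 lower in MRL (median 0.98). All genes tested were called higher for 35.1% and lower for 32.8% in BL6, and for 22.3% and 22.7% in MRL. Ifi27l2a rose most in both strains, by 3.21 in BL6 and 2.48 in MRL, reaching 66.0 ± 65.2 CPM from 7.16 ± 2.48 and 69.7 ± 23.2 CPM from 12.5 ± 3.67 (SD, n = 4). Its operated BL6 samples ran from 13.9 to 161 CPM. Ifitm2 and Ifitm3, membrane proteins that block viral fusion, rose by 1.88 and 1.81 in BL6. In MRL the next were Ifi44, by 2.33, and Oas2, an enzyme that makes the signal for RNase L, by 1.85. Dtx3l and Znfx1 were the 2 genes lower in BL6, by 0.72 and 0.31, and Znfx1 was no longer called with total counts alone (adjusted p = 0.363). Without both libraries that stood apart, 23 genes of the list were called in BL6 and 29 in MRL.

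Of 11 genes known mainly as targets of interferon gamma, 2 were higher and 3 lower in BL6 (median log2 -0.02), where 35.1% of all genes were higher and 32.8% lower. In MRL 6 were higher and 0 lower (median 0.71), where those shares were 22.3% and 22.7%. The guanylate-binding protein Gbp7 fell by 1.21 in BL6, from 15.2 ± 2.18 to 6.57 ± 0.642 CPM, while MRL held 5.94 ± 0.689 CPM unoperated and 6.01 ± 2.60 CPM operated (SD, n = 4; adjusted p = 0.974, edgeR). Gbp5 fell by 0.65 in BL6, from 7.02 ± 1.29 to 4.47 ± 0.747 CPM, a call that total-count scaling ended (adjusted p = 0.0919), as did leaving out unoperated BL6 replicate 1 (0.0506) or operated BL6 replicate 1 (0.0518). Irgm2, an immunity-related GTPase, fell by 0.87 in BL6, and Gbp2 rose by 0.78. Cxcl9, a chemokine that draws T cells, rose by 1.78 in BL6, and in MRL, where it started at 0.104 ± 0.0608 CPM, near the floor, it reached 0.856 ± 0.399 CPM. Gbp3 rose by 1.37 and Iigp1 by 1.24 in MRL. The MRL count of 6 fell to 3 without unoperated MRL replicate 3, and the call of Iigp1 was also lost without operated MRL replicate 1 (log2 0.65, adjusted p = 0.109).

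The interaction was positive for 11 of these 11 genes, with a median of 0.86 against -0.01 over all genes, but 0 of them was called in edgeR's test; 5 had an unadjusted p under 0.05, where 15.7% of all genes did. The interaction of Gbp5 was 1.35 (SE 0.32, adjusted p = 0.101) and that of Gbp7 1.22 (SE 0.32, adjusted p = 0.128). DESeq2 called 2 of the 11, and edgeR called 1 without operated MRL replicate 4. For the 34 type I genes the median interaction was 0.21, with 0 called and 2 at an unadjusted p under 0.05. In unoperated muscle 7 of the 11 gamma-induced genes were lower in MRL and 0 higher, among them Gbp5 (log2 -1.52), Gbp7 (-1.35) and Cxcl9, which BL6 held at 1.32 ± 0.423 CPM. Of all genes tested, 5.36% were lower and 5.02% higher in unoperated MRL, and 5.27% and 7.6% in operated MRL. In operated muscle 1 was higher, Gbp3 (1.15), and 2 lower, Cxcl9 (-2.41) and Gbp2 (-0.76), and without operated MRL replicate 1 the count of 3 became 5.

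Of the 34 type I genes, 6 were called lower and 1 higher in unoperated MRL (median -0.27), and 2 lower and 2 higher in operated MRL (median -0.16). The shares of all genes were 5.36% lower and 5.02% higher in unoperated MRL, and 5.27% and 7.6% in operated MRL. Rsad2 (viperin), an enzyme that makes a chain-terminating nucleotide, was lower in MRL in both conditions, by 2.17 and 2.12 on the log2 scale (adjusted p = 0.00189 and 0.00152, edgeR). It held 5.94 ± 0.817 and 17.6 ± 4.39 CPM in unoperated and operated BL6, and 1.32 ± 0.548 and 4.07 ± 2.48 CPM in MRL (SD, n = 4). Ifi35 was lower by 1.18 unoperated and 1.04 operated, and Lgals3bp by 1.14 unoperated. Eif2ak2, the RNA-activated kinase PKR, was higher by 0.69 in operated MRL. In unoperated MRL the sensor genes Ifih1 and Trim25 were lower by 0.94 and 0.52 and Irf2bpl by 0.51, and in operated MRL Myd88 and Trim25 were lower by 0.68 and 0.65. Without unoperated BL6 replicate 2, unoperated MRL replicate 2 or unoperated MRL replicate 4, 3 of the 34 genes were called in the unoperated comparison, and 4 without unoperated BL6 replicate 1 or 3. In the operated comparison 2 of the 34 were called without operated BL6 replicate 1 or 3 or operated MRL replicate 2. The calls of Eif2ak2, Myd88, Trim25, Ifih1 and Irf2bpl were each lost under total counts alone (adjusted p of 0.0627 to 0.274), and those of Eif2ak2, Myd88, Ifih1, Irf2bpl and unoperated Trim25 also on leaving out single libraries of the groups compared.

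Negative regulators of the pathway went both ways. Of 9 tested, 1 was higher and 4 lower in BL6 (median -0.52), where 35.1% of all genes were higher and 32.8% lower. In MRL 1 was higher and 5 lower (median -0.44), where those shares were 22.3% and 22.7%. Ptpn11, the phosphatase Shp2, fell by 1.10 and 0.71, and the Stat inhibitors Pias2 and Pias4 fell by 0.67 and 0.65 in BL6 and by 0.45 and 0.53 in MRL, while Pias3 rose by 0.71 and 0.48. The MRL count of 6 called fell to 2 with total counts alone and without unoperated MRL replicate 2 or 4 or operated MRL replicate 1 or 3, and to 3 without unoperated MRL replicate 3 or operated MRL replicate 2.

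**Figure D4:**
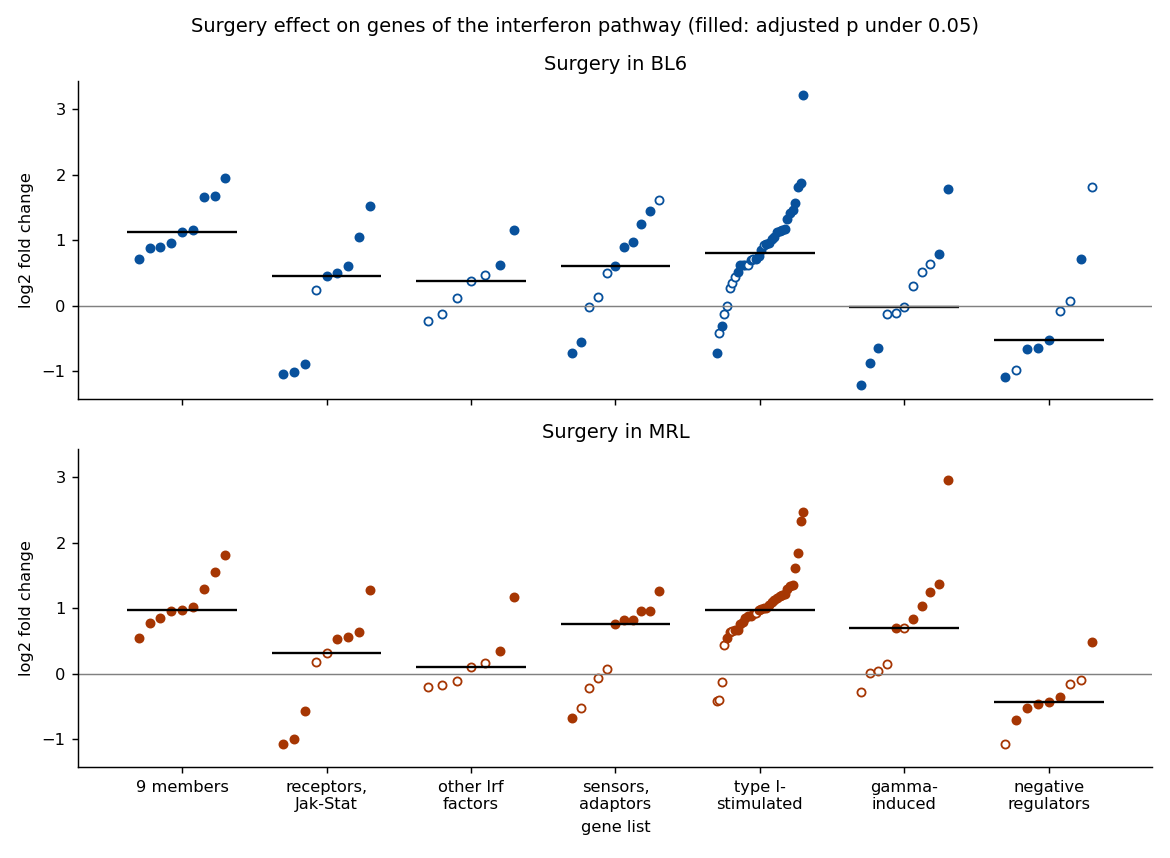
Log2 fold change after surgery (y axes) of each gene tested in 6 interferon pathway lists and the 9 genes described (x axis), in BL6 above and MRL below; filled points have an adjusted p under 0.05. The 9 genes lie above 0 in both strains, whereas gamma-induced genes have medians of -0.02 in BL6 and 0.71 in MRL.

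Within groups the 9 genes varied together. After each group's mean was removed, the median correlation of log2 CPM over the 36 pairs of genes was 0.654 (16 samples, which share library and scaling), from 0.109 for Irf3 and Ifit1 to 0.935 for Stat2 and Bst2. Irf7 and Isg15 reached 0.902. The same correlation was not computed for other genes, so it is not shown to be particular to these 9. Operated MRL replicate 1 was the highest of its group for 8 of the 9 genes, and operated BL6 replicate 4 for 6. Replicate 1 of unoperated BL6 and of unoperated MRL were each highest for 6.

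Markers of several other cell types were higher after surgery as well, and those of some were lower. For endothelial cells, which line blood vessels, the sum over 6 of 6 markers was 394, 351, 295 and 273 CPM in unoperated BL6 and 683, 537, 719 and 760 CPM in operated BL6. In MRL it was 301, 248, 256 and 213 CPM unoperated and 685, 582, 652 and 309 CPM operated. Operated BL6 replicate 2 and operated MRL replicate 4 were the lowest of their groups here too, the latter by a wide margin. Of the 6 markers 5 were called higher in BL6 and 6 in MRL. Among all genes tested, 35.1% were called higher in BL6 and 22.3% in MRL. For Schwann cells, which sheathe nerve fibers, the sum over 4 of 4 markers was 45.5, 49.7, 35.0 and 36.8 CPM in unoperated BL6 and 241, 89.9, 137 and 211 CPM in operated BL6. In MRL it was 45.4, 25.1, 35.7 and 53.7 CPM unoperated and 143, 54.7, 93.6 and 39.9 CPM operated. Here too operated BL6 replicate 2 and operated MRL replicate 4 were the lowest of their groups, and operated MRL replicate 1 was the highest. Of the 4 Schwann cell markers 4 were called higher in BL6 and 3 in MRL.

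Adipocyte markers were called higher for 3 of 3 tested in each strain, from a summed 7.06 to 12.3 CPM to 17.7 to 210 CPM in BL6 and from 8.77 to 21.9 CPM to 32.2 to 183 CPM in MRL. In operated MRL replicate 4 held the highest adipocyte sum and replicate 1 the lowest, while operated BL6 replicate 2 was the lowest of its group. Fibro-adipogenic progenitor markers were called higher for 3 of 5 in BL6 and 2 of 5 in MRL. The markers moved unequally. Mean Pdgfra went from 26.2 to 30.8 CPM in BL6 and 28.9 to 34.3 in MRL, and Dcn from 406 to 505 and 611 to 724. Ly6a went from 51.6 to 138 CPM in BL6 and 51.0 to 103 in MRL, Cd34 from 78.5 to 207 and 111 to 169, and Dpt from 56.4 to 129 and 81.0 to 121. Operated BL6 replicate 2 and operated MRL replicate 1 held the lowest fibro-adipogenic sums of their groups, 720 and 958 CPM. The shares of all genes were 35.1% higher and 32.8% lower in BL6, and 22.3% and 22.7% in MRL. Of the plasmacytoid dendritic cell list only Il3ra was tested, as Siglech and Ccr9 were not among the genes tested, and Il3ra alone cannot show these cells. It rose by 2.08 on the log2 scale in BL6 and 1.10 in MRL, and the 1 neutrophil marker tested, S100a9, by 1.86 and 1.89. The 1 B cell marker tested, Ighm, was called lower in both strains, with log2 -1.56 in BL6 and -2.33 in MRL. Satellite cell markers were called lower for 2 of 2 tested in BL6 and 1 of 2 in MRL. The part of RNA from these cell types in the rise of the 9 genes was not tested.

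For macrophages and monocytes the sum over 8 of 9 markers was 142, 57.4, 41.6 and 38.3 CPM in unoperated BL6 and 144, 83.4, 157 and 528 CPM in operated BL6. In MRL it was 312, 75.5, 75.5 and 97.5 CPM unoperated and 138, 127, 219 and 238 CPM operated. The BL6 replicates fell in the same order as for the endothelial sum within each group, while in operated MRL replicate 4 was the highest. In BL6 5 of 8 were called higher and in MRL 1 of 8, beside 35.1% and 22.3% of all genes. The interaction called 0 of these 8 markers in edgeR's test, with 2 at an unadjusted p under 0.05, where 15.7% of all genes were. None of 6 T cell and 4 natural killer cell markers was among the genes tested, nor were 4 of 5 B cell, 4 of 5 neutrophil and 2 of 3 plasmacytoid dendritic cell markers. Summed muscle fiber markers ran from 103100 to 141200 CPM in unoperated BL6 and 48370 to 113700 CPM in operated BL6, and from 93010 to 105900 CPM and 61640 to 79190 CPM in MRL. The part of these shifts in the values of the 9 genes was not tested.

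**Figure D5:**
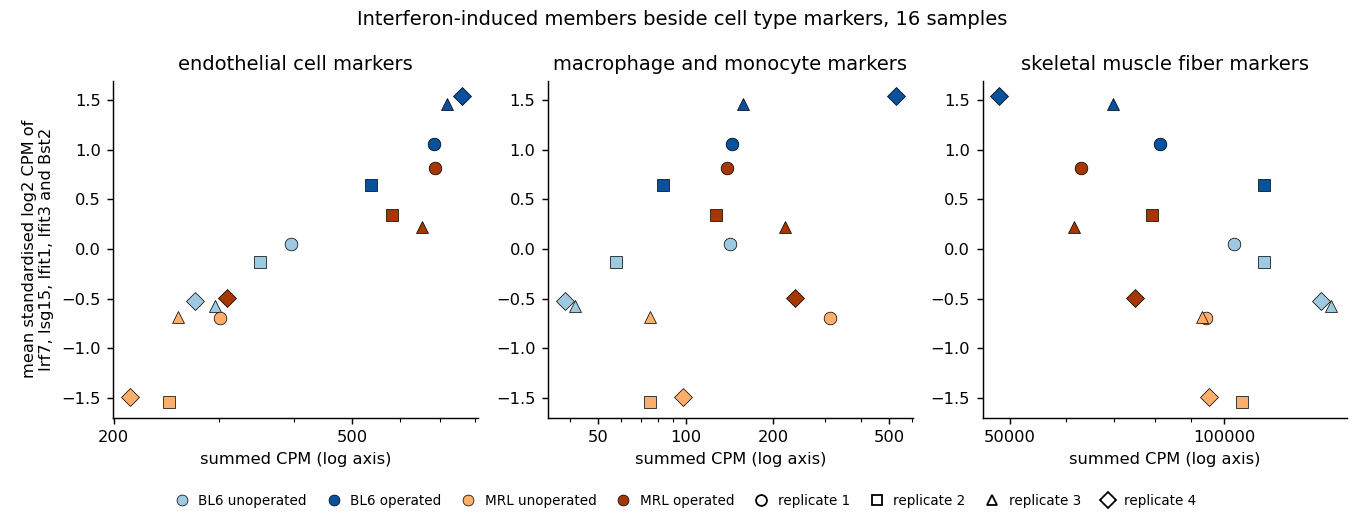
Mean standardised log2 CPM of Irf7, Isg15, Ifit1, Ifit3 and Bst2 (y axis) against the summed CPM of endothelial, macrophage and monocyte, and muscle fiber markers (x axes, log scale) in 16 samples; colours give groups and shapes replicate numbers. Operated MRL replicate 4 has both the lowest score of its group, -0.49, and its lowest endothelial sum, 309 CPM.

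The genes whose pattern over the 16 samples was most like the mean of Irf7, Isg15, Ifit1, Ifit3 and Bst2 were Timeless (Pearson r 0.982), Scarb1 (0.965), Pold3 (0.963), Cd93 (0.960) and Cdh5 (0.957), a description with no test over samples that fall into groups. Cdh5, the endothelial cadherin, is 1 of the endothelial markers, and Cd93 is a receptor of the endothelial surface. Timeless, a replication fork protein, rose from 4.92 ± 0.711 to 13.8 ± 3.31 CPM in BL6 and from 2.88 ± 0.599 to 7.11 ± 2.61 CPM in MRL (SD, n = 4). It lies 17.6 kb from Stat2 on chromosome 10, with 2 annotated genes between them. Cdh5 went from 97.9 ± 8.94 to 209 ± 35.9 CPM in BL6 and from 65.7 ± 13.3 to 158 ± 50.6 CPM in MRL.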

How the data were processed

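RNA was isolated with a column kit and DNase from minced muscle, per the labels' protocols. The submitters' processing notes name FastQC, STAR, edgeR and mm10 without versions or roles; the counting program and its use of strand are not given in the sources used here. The authors deposited whole-number counts per gene, read as raw from their values, and a table of log2 fold changes, p-values and false discovery rates per the file headers. From the counts, edgeR 4.0.16 in R 4.3.3 fitted 1 quasi-likelihood model with a mean per group to 16 samples, after TMM scaling and filterByExpr at a minimum count of 10 (11709 of 11710 genes kept). P-values were adjusted by Benjamini-Hochberg over all genes tested, and genes were called at an adjusted p under 0.05. CPM uses TMM-scaled library sizes; log2 CPM used a prior count of 2. Fold changes are edgeR estimates, with 95% intervals from the quasi-likelihood standard error. DESeq2 1.42.0 and limma 3.58.1 (voom) were alternatives, with other scalings, no filter, a replicate block, fewer groups and each library left out. Floors of 3 counts cover counting error only. Gene positions are from GENCODE M21 (GRCm38), and near-copies from blastn 2.17.0. The 9 genes and all lists were chosen with earlier results of these data known. All 9 genes are named; of each list, up to 3 called genes with the largest rise and 3 with the largest fall per comparison; 1 gene so selected is not reported here and was not replaced; of likeness, the 5 genes with the highest r. Gbp5, Gbp7, Gbp3 and Cxcl9 are also given outside the comparison that named them. No pair of replicates held counts within sampling noise of each other. The model was tested on simulated counts.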

Additional observations from a re-analysis of the deposited data

Results flagged for a closer look

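In 6 of 76 checks of a gene or marker sum within a group of 4 samples (36 of the checks were on the 9 genes), 1 sample lay far from the other 3 relative to the group's range; chance alone gives about 1 in 20. In unoperated MRL, replicate 1 held 7.52 CPM of Bst2 against 4.23 to 4.64 in the others, and 13.2 CPM of Stat2 against 8.75 to 9.32. The same sample held 312 CPM of summed macrophage and monocyte markers against 75.5 to 97.5, and 1015 CPM of fibro-adipogenic progenitor markers against 822 to 846. In operated BL6, replicate 4 held 528 CPM of macrophage and monocyte markers against 83.4 to 157, and 210 CPM of adipocyte markers against 17.7 to 48.9. For the 9 genes no other sample was so far from its group.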

How the results depend on the processing

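The surgery counts of the 9 genes kept within 1.5 times of 9 in each strain under all alternatives, with 8 to 9 called in BL6 and 7 to 9 in MRL when each library of the groups compared was left out. Ifit3 in MRL fell to log2 0.82 with limma voom (adjusted p = 0.102) and 0.95 with only the groups compared (0.0556), and its range without each library was 0.61 to 1.15. Summing the counts of Ifit3 and Ifit3b, an alternative chosen after seeing the data, gave 0.36 for BL6 surgery, and reversed Ifit3 to -0.078 for MRL surgery, -0.44 for the interaction and 0.092 for the unoperated strain difference; the operated one was -0.35.

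The strain count of 3 among operated samples fell to 1 with total counts alone, 0 with only the groups compared and 1 without unoperated MRL 1 and operated BL6 4 together, and ran from 1 to 4 leaving out each library; the unoperated count ran from 1 to 2. Irf1 was -0.46, -0.49 and -0.41 there and Ifit1 -1.01, -1.03 and -0.95, none called, and Ifit3 was -1.47 with only the groups compared (adjusted p = 0.0526). Over all genes, the interaction count of 29 became 14 with total counts alone, 250 with DESeq2 and 2 with the replicate block (1 to 69 leaving out each library). The unoperated strain count of 1216 became 2438, and the operated one of 1507 became 575, with only the groups compared; leaving out each library gave 821 to 1102 and 1030 to 1842, and for surgery 7189 to 8177 in BL6 and 3490 to 6145 in MRL. Surgery in BL6 split 4107 higher to 3843 lower, and 4443 to 2932 with total counts alone, which moved the median of all genes from 0.04 to 0.18; the unoperated strain split went from 588 to 628 to 742 to 313, with the median moving from 0.01 to 0.15, and the operated one from 890 to 617 to 994 to 383.

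Uncalled interactions near 0 changed sign: Stat2 to -0.076 and Ifit3 to -0.070 with total counts alone, Ifit3 to -0.075 with limma voom, and, without both libraries, Irf1 to 0.0077, Irf9 to 0.034, Isg15 to 0.48 and Bst2 to 0.31. Unoperated Irf9 went to 0.059 with total counts alone. Leaving out each library, interactions ran from -0.33 to 0.11 for Bst2, -0.43 to 0.084 for Ifit1, -0.28 to 0.26 for Ifit3, -0.25 to 0.016 for Irf9, -0.38 to 0.30 for Isg15 and -0.10 to 0.21 for Stat2, and the unoperated strain difference of Irf9 from -0.16 to 0.080. The cause of these moves was not tested. Replicate numbers are shared across groups in the titles. Deviations of same-numbered samples correlated at -0.474 to 0.452 over 24 pairs, with values on both sides of 0. With so few samples per group, these correlations cannot decide whether the numbers pair the samples. The replicate block changed no count of the 9 genes by over 1.5 times. Depth limits Isg15, Ifit1 and Ifit3 in MRL most, where some samples held under 1 CPM.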
